A study of Mus musculus with 25 samples.

Results

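The gp130 cytokines and their receptors were followed in sorted mouse liver cells by bulk RNA sequencing. The set held 10 genes, listed by symbol: the ligand genes Il6, Osm, Lif and Il27, the receptor genes Il6ra, Il11ra1, Il27ra, Osmr and Lifr, and Il6st, which encodes the shared chain gp130. A member was any gene of the count tables whose Ensembl identifier maps to one of these symbols. These were 10 of 51912 genes in the table of immune cells and 9 of 18668 genes, all but Il27, in the table of hepatocytes. Of these, 10 immune and 8 hepatocyte members passed the filter on low counts, and Osm did not pass it in hepatocytes.

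The series concerns signals from macrophages to hepatocytes, the metabolic cells that make up most of the liver, through IL-6, gp130 and STAT3. All mice were of a C57BL/6J 129SV background, and the labels give neither age nor sex. Hepatocytes came from 5 groups. Wild-type mice received a plasmid for GFP (GFP, n = 2) or IL-6 (IL-6, n = 3) by hydrodynamic tail vein injection, a rapid infusion that transfects liver cells, and were studied 1 week later. Stat3-floxed mice had AAV-TBG-Cre 2 weeks and the plasmid for IL-6 1 week before study (IL-6 STAT3KO, n = 3). Other Stat3-floxed mice ate DDC, a porphyrin-raising diet that injures bile ducts, for 1 week. Their vector was AAV-TBG-GFP in the DDC group (n = 2) and AAV-TBG-Cre in the DDC STAT3KO group (n = 3). TBG is a promoter active in hepatocytes, so Cre deletes the floxed gene there and leaves it in other liver cells. The DDC and GFP groups therefore differed in diet, genotype, AAV and plasmid together, and the IL-6 STAT3KO and IL-6 groups in genotype and AAV. The 6 immune groups (n = 2 each) came from wild-type mice: macrophages, Ly6C-low monocytes, Ly6C-high monocytes, neutrophils and T cells after 1 week of DDC, and macrophages on a normal diet. The labels do not say that replicates are separate animals, so the p-values rest on library-to-library variation that could be technical.

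Cytokines of this family bind a receptor chain of their own and then bring in gp130, whose bound JAK kinases phosphorylate STAT3 and other signal proteins. IL-6 uses IL-6R (Il6ra) and gp130, IL-11 uses IL-11R (Il11ra1) and gp130, and IL-27 uses IL-27R (Il27ra) and gp130. LIF pairs gp130 with the LIF receptor (Lifr), and mouse oncostatin M pairs it mainly with its own receptor chain (Osmr). In liver, IL-6 is known as the main inducer of the acute phase response of hepatocytes, and SOCS3, which STAT3 induces, shuts the receptor down again.

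The hepatocyte libraries held 13625040 to 18428988 counts and the immune libraries 3817794 to 12945663, the lowest in neutrophil replicate 2. Levels are given as CPM, counts scaled to the size of the library after TMM scaling, in order of replicate number. Stat3, the targeted gene, stood at 98.9 to 108.6 CPM in GFP, 339.7 to 423.9 in IL-6, 96.0 to 115.8 in IL-6 STAT3KO, 112.0 to 150.1 in DDC and 56.3 to 87.3 in DDC STAT3KO. The counts cover the whole gene, so the reads left do not show whether the floxed exons were lost. Il6 was detected far more in IL-6 replicate 3 than in replicates 1 and 2. That library also had the lowest summed hepatocyte markers (18290 CPM over 8 genes, against 50040 to 153600 in the other 12). In the immune table the libraries labelled T cell had the most T cell markers (298.4 and 328.9 CPM over 8 genes, against 5.98 to 112.1 elsewhere), but Cd3e was only 0.241 to 1.24 CPM there. They also held 6642 and 11890 CPM of Kupffer cell markers and 3858 and 2565 CPM of hepatocyte markers, so results from them describe those libraries and not pure T cells.

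Osmr and Lifr carry most of the hepatocyte findings, and they are neighbours. Osmr lies on chromosome 15 at 6813577 to 6874969 on the reverse strand and Lifr at 7090614 to 7197489 on the forward strand (GENCODE M21, GRCm38), 215.6 kb apart with 0 protein-coding genes between them. Their promoters are shown because the IL-6 plasmid moved these genes in opposite directions. Each line gives the 250 bases before a start site in RefSeq (GRCm38.p6), 5′ to 3′ on the strand of the gene, with CG dinucleotides in capitals. The Osmr window is chr15:6874314-6874563 (reverse strand), and the Lifr windows are chr15:7129322-7129571 and chr15:7140292-7140541 (forward strand).
Osmr: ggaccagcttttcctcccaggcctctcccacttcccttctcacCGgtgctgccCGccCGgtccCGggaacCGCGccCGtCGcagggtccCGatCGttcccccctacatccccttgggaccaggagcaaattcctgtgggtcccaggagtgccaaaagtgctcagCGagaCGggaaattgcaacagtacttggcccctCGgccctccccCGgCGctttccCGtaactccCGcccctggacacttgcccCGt
Lifr, first start: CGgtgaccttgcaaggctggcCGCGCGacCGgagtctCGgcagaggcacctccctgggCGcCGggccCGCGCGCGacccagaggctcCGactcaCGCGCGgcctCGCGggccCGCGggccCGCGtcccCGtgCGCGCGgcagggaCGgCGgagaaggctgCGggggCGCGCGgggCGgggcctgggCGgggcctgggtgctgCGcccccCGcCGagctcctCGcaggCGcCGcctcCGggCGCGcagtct
Lifr, second start: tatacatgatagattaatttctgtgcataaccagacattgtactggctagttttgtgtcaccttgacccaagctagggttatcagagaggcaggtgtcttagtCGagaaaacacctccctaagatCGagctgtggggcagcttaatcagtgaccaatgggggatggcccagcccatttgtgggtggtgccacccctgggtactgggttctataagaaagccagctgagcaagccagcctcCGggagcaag
The window at the first Lifr start held 43 CG dinucleotides, and 99.5% of 32851 promoters in the table held as many or fewer. The Osmr window held 18 (80.3%) and the second Lifr window 3 (37.8%), against a median of 6 over all promoters. Among the members, 7 of 10 had a promoter in the table (all but Osm, Il27 and Il27ra). No window of these 7, from 250 bases before to 50 after the start, held TTCNNNGAA, a form of the site that STAT dimers bind, on either strand, while 8.3% of all promoters did. The AP-1 letters TGANTCA were found in the windows of Il6, Lif and Osmr and in 7.81% of all promoters. A match or its absence describes these letters in this window only.

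The IL-6 plasmid raised Osmr and lowered Lifr in hepatocytes. Osmr was 1.02 and 1.45 CPM with GFP and 54.0, 57.2 and 71.6 CPM with IL-6. No IL-6 library came near the GFP range. The log2 fold change was 5.62 ± 0.57 (SE, the form used from here on), a 49.2-fold rise (edgeR quasi-likelihood test, adjusted p = 6.00e-05). Lifr was 623.0 and 467.5 CPM with GFP and 61.3, 62.3 and 43.7 CPM with IL-6, again with a wide gap between the groups. It fell by 3.29 ± 0.33 on the log2 scale (adjusted p = 5.75e-05), a 9.78-fold difference. In this comparison 3 of the 8 tested members were called higher (Osmr, Il6 and Lif) and 1 lower (Lifr), where 25.9% of all 14339 genes were called (13.7% higher and 12.2% lower). Il6 and Lif had 1 count each in the GFP libraries and passed the filter through groups where they were high, so the member count is a description. In bulk libraries, fewer cells of a type and less RNA per cell cannot be told apart.

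Levels of marker genes for other cell types differed between these groups as well. Bile duct markers (4 of 5 with a row, 2 to 4 of them detected in each of these libraries) summed to 2205 to 10750 CPM in IL-6, against 4.67 and 5.57 CPM in GFP and 6.87 to 48.9 CPM in IL-6 STAT3KO. Most of that sum was Spp1, an osteopontin gene that other cells also express (2114 to 10650 CPM in IL-6), while Sox9 was 87.3 to 96.1, Epcam 0.801 to 1.82 and Krt7 at most 0.123 CPM there. T cell markers (4 of 8 with a row) summed to 11.6 to 37.9 CPM in IL-6, 0.550 and 1.02 CPM in GFP and 3.16 to 4.03 CPM in IL-6 STAT3KO. Neutrophil markers (4 of 7 with a row) summed to 1.06 to 18.9 CPM in IL-6, 0.0640 and 0.206 CPM in GFP and 0.495 to 2.45 CPM in IL-6 STAT3KO. Kupffer cell markers (8 of 8) summed to 74.1 to 171.1 CPM in IL-6 against 28.6 and 36.7 CPM in GFP. Macrophage markers (5 of 5) summed to 37.25 to 45.0 CPM in IL-6 against 22.3 and 24.8 CPM in GFP. In IL-6 STAT3KO these sums were 110.5 to 259.2 CPM and 41.7 to 99.15 CPM. Erythroid markers (3 of 3) were lower in IL-6, at 3.08 to 8.23 CPM, than in GFP (160.7 and 174.9 CPM) or IL-6 STAT3KO (70.3 to 116.0 CPM). The mitochondrial share of counts was 2.05% to 2.76% in IL-6, 5.56% and 5.6% in GFP and 4.16% to 5.92% in IL-6 STAT3KO. The part of these values in the receptor differences was not tested.

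In the floxed mice given AAV-TBG-Cre, the same plasmid left both genes near the GFP libraries. In IL-6 STAT3KO, Osmr was 1.18, 3.04 and 2.28 CPM, all under the lowest IL-6 library, and was lower than in IL-6 by 4.81 ± 0.45 (log2, adjusted p = 2.14e-05). Lifr was 363.6, 401.4 and 339.6 CPM, all above the IL-6 libraries, and was higher than in IL-6 by 2.72 ± 0.31 (adjusted p = 7.74e-05). Of the 8 tested members, Lifr was called higher and Osmr and Il6 lower, with 26.4% of all genes called (13.0% higher and 13.4% lower). Both groups had the plasmid for IL-6, and IL-6 replicate 3 held 5624 of the 5738 Il6 counts in IL-6. The member count is therefore a description. Set against GFP, neither passed: Osmr differed by 0.81 ± 0.53 (adjusted p = 0.435) and Lifr by -0.57 ± 0.32 (adjusted p = 0.363), with 3.12% of all genes called (0.865% lower). Every IL-6 STAT3KO library was still below both GFP libraries in Lifr. These 3 comparisons share libraries, and the Il6 level differed between the IL-6 groups as well, as given with the ligands.

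**Figure D1:**
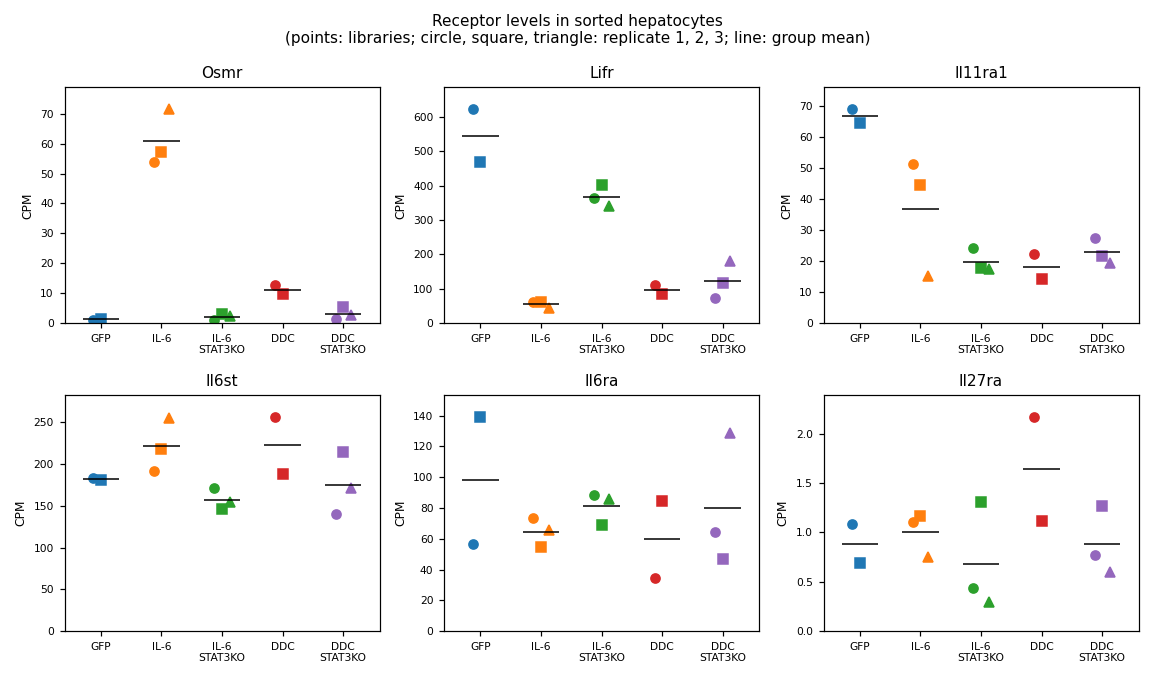
Receptor levels in 13 hepatocyte libraries (vertical axis, CPM from 0; each point is a library, shapes give the replicate number, lines are group means). Osmr is high only in the 3 IL-6 libraries (54.0 to 71.6 CPM), with DDC at 9.72 and 12.6 CPM, and Lifr is low in IL-6 and in both DDC groups.

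The DDC diet was compared with the GFP plasmid group to describe the receptors in injured liver. Osmr was 12.6 and 9.72 CPM in the DDC libraries, above both GFP libraries and below all IL-6 libraries, and rose by 3.17 ± 0.55 (adjusted p = 0.00385). Lifr was 110.7 and 84.9 CPM, below both GFP libraries, and fell by 2.48 ± 0.37 on the log2 scale (adjusted p = 0.00203). Il11ra1, the receptor chain for IL-11, was 22.2 and 14.3 CPM against 69.1 and 64.7 CPM with GFP and fell by 1.88 ± 0.45 on the log2 scale (adjusted p = 0.0154). With Lif, 2 members were called higher and 2 lower of 8, where 18.6% of all genes were called (10.4% higher and 8.29% lower). Lif had 1 count in GFP and passed the filter through other groups, so this count too is a description. Markers of some other cells were higher in DDC too. Kupffer cell markers (8 of 8 detected) summed to 277.9 and 452.1 CPM against 28.6 and 36.7 CPM with GFP, and stellate cell markers (6 of 6) to 200.6 and 326.4 CPM against 78.6 and 66.6 CPM. Sinusoidal endothelial markers (6 of 6) summed to 195.6 and 168.9 CPM in DDC against 112.1 and 131.7 CPM with GFP. Bile duct markers summed to 519.4 and 569.2 CPM in DDC, nearly all of it Spp1 (485.8 and 539.2 CPM). Erythroid markers were lower, at 18.2 and 22.9 CPM in DDC against 160.7 and 174.9 CPM with GFP. T cell markers overlapped, at 0.106 and 0.980 CPM in DDC against 1.02 and 0.550 CPM with GFP. In IL-6, Kupffer cell markers summed to 74.1 to 171.1 CPM, also above both GFP libraries. Stellate cell markers summed to 54.0 to 116.0 CPM in IL-6, a range that holds both GFP libraries. The part of these cells in the receptor differences was not tested.

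No member passed in DDC STAT3KO against DDC. Osmr was 1.55, 5.45 and 2.62 CPM in the DDC STAT3KO libraries, each below both DDC libraries, and differed from DDC by -1.79 ± 0.43 (unadjusted p = 0.00137, edgeR adjusted p = 0.853). Kupffer cell markers summed to 335.3, 412.7 and 53.8 CPM and bile duct markers to 257.9, 240.7 and 6.44 CPM in these 3 libraries. Their mitochondrial shares were 2.03%, 5.38% and 5.26%, against 5.48% and 5.21% in DDC. Lifr was 72.3, 117.1 and 179.3 CPM, a range that holds both DDC libraries, and differed by 0.33 ± 0.33 (adjusted p = 0.878). In DDC STAT3KO against DDC, edgeR called 0.00% of all genes (0 of 14339, 803 at an unadjusted p under 0.05, and 19 by DESeq2). The STAT3KO difference was then compared between the IL-6 and DDC models. The STAT3KO difference under IL-6 minus that under DDC was -3.02 ± 0.61 for Osmr (adjusted p = 0.0111) and 2.39 ± 0.43 for Lifr (adjusted p = 0.00611), with 8.28% of all genes called (4.20% higher and 4.08% lower) and 2 of 8 members among them. Without DDC replicate 2 the value for Osmr was -2.82 (adjusted p = 0.0721). In the DDC pair both groups were floxed and had an AAV, and in the IL-6 pair only the STAT3KO group did, so genotype and vector enter this difference and cannot be told apart from the deletion.

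IL-6 and DDC were also set against each other, although they differ in genotype, AAV, plasmid and diet. Osmr was higher in IL-6 by 2.45 ± 0.46 (adjusted p = 0.00508), and Lifr differed by -0.81 ± 0.32 (adjusted p = 0.127). With Il6, 2 of 8 members were called, both higher, where 11.6% of all genes were called (6.03% higher). Il6 had 1 count in DDC and passed the filter through the plasmid groups, so that count is a description. The Osmr call was lost without DDC replicate 2 (2.25, adjusted p = 0.0759). The Il6 call was lost without DDC replicate 1 (adjusted p = 0.162), without DDC replicate 2 (0.186) or with only these 2 groups in the fit (0.0897), and its log2 value fell from 11.89 to 7.03 without IL-6 replicate 3.

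**Figure D2:**
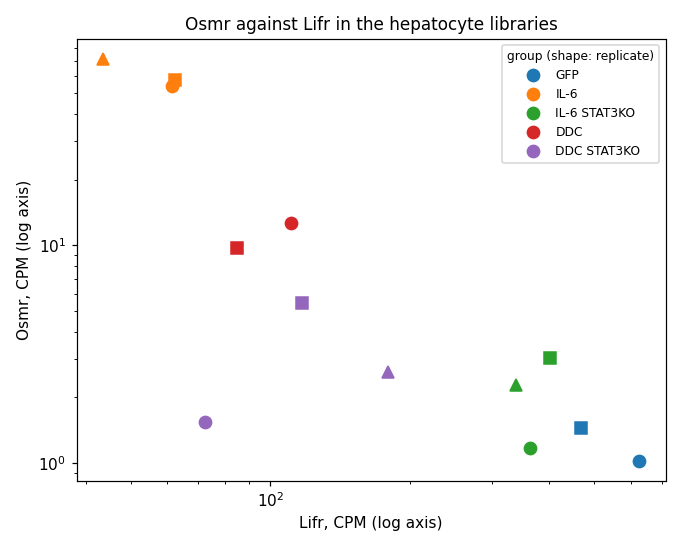
Osmr (vertical axis) against Lifr (horizontal axis) in 13 hepatocyte libraries, both as CPM on log axes, with colour for the group and shape for the replicate. The 3 IL-6 libraries lie at high Osmr and low Lifr, the 2 GFP and 3 IL-6 STAT3KO libraries at low Osmr and high Lifr, and DDC STAT3KO replicate 1 is low in both (1.55 CPM of Osmr and 72.3 CPM of Lifr).

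Il6st, the chain that all these cytokines share, passed in no hepatocyte comparison. Its levels were 182.8 and 180.8 CPM in GFP, 191.1, 217.7 and 255.1 CPM in IL-6 and 171.6, 146.4 and 154.2 CPM in IL-6 STAT3KO. Under DDC it was 256.5 and 188.4 CPM with Stat3 and 140.6, 214.4 and 171.3 CPM in DDC STAT3KO. All IL-6 libraries were above all GFP and IL-6 STAT3KO libraries, while the DDC and DDC STAT3KO ranges overlapped. The differences were 0.28 ± 0.22 in IL-6 against GFP (adjusted p = 0.381), -0.49 ± 0.20 in IL-6 STAT3KO against IL-6 (adjusted p = 0.0918) and 0.29 ± 0.24 in DDC against GFP (adjusted p = 0.424).

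Il6ra, which encodes the IL-6 binding chain, spread widely within groups. It was 56.9 and 139.3 CPM in GFP, 73.2, 54.6 and 66.0 CPM in IL-6, 88.5, 68.7 and 86.2 CPM in IL-6 STAT3KO, 34.4 and 84.7 CPM in DDC, and 64.6, 46.6 and 128.5 CPM in DDC STAT3KO. The ranges of all groups overlapped. The difference in IL-6 against GFP was -0.60 ± 0.46 (adjusted p = 0.367) and turned to 0.19 without GFP replicate 2.

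All libraries of the other 4 groups held less Il11ra1 than both GFP libraries. It was 51.2, 44.6 and 15.2 CPM in IL-6, 24.3, 17.8 and 17.3 CPM in IL-6 STAT3KO and 27.5, 21.5 and 19.4 CPM in DDC STAT3KO. The fall in IL-6 STAT3KO against GFP passed (-1.76 ± 0.39, adjusted p = 0.0310) and was the 1 member call of that comparison. It was lost without GFP replicate 1 (-1.70, adjusted p = 0.200), GFP replicate 2 (-1.80, 0.164), IL-6 STAT3KO replicate 2 (-1.69, 0.107) or replicate 3 (-1.67, 0.111). The DDC call was lost without DDC replicate 2 (-1.59, adjusted p = 0.122), GFP replicate 1 (-1.84, 0.0711) or GFP replicate 2 (-1.94, 0.0672). IL-6 against GFP did not pass (-0.86 ± 0.39, adjusted p = 0.125), nor did IL-6 STAT3KO against IL-6 (-0.90 ± 0.36, adjusted p = 0.0851). Without IL-6 replicate 3, IL-6 STAT3KO against IL-6 gave -1.26 (adjusted p = 0.00276). DDC STAT3KO against DDC gave 0.33 ± 0.40 (adjusted p = 0.898). Il11ra2 is a near-identical copy of Il11ra1 on chromosome 4, so reads that match both copies may be lost. Il11ra2 itself had no row in the hepatocyte counts and 0 counts in every immune group. Il27ra was low in all hepatocyte libraries, at 0.292 to 2.17 CPM, and passed in no hepatocyte comparison.

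**Figure D3:**
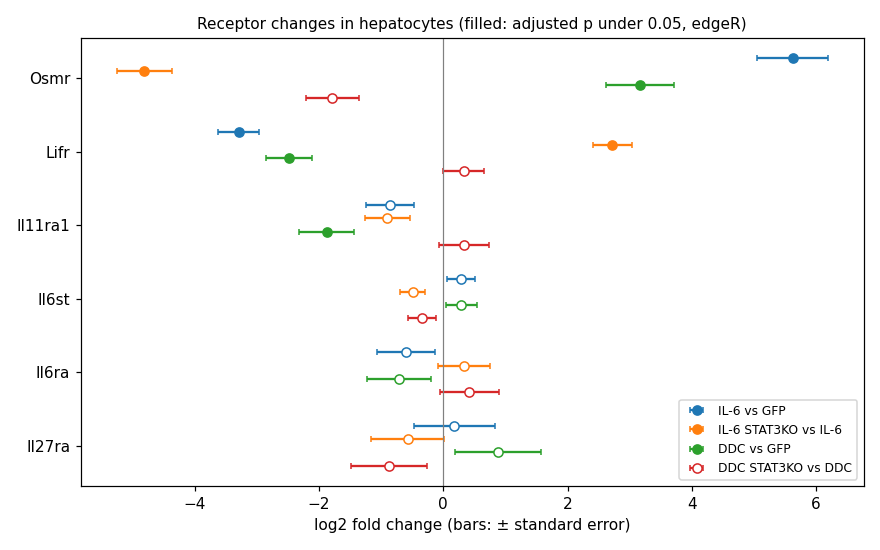
Log2 fold changes of 6 receptor genes in 4 hepatocyte comparisons (horizontal axis; bars are standard errors, filled points have an edgeR adjusted p under 0.05). Osmr and Lifr lie on opposite sides of 0 in the IL-6 comparisons, at 5.62 and -3.29 against GFP and at -4.81 and 2.72 for IL-6 STAT3KO against IL-6.

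Levels of different receptors were compared per kilobase of exon. In GFP hepatocytes Lifr was the highest at 50.6 CPM per kb, followed by Il6st at 16.4, Il11ra1 at 15.0 and Il6ra at 11.3 CPM per kb, with Il27ra at 0.254 and Osmr at 0.102 CPM per kb. In IL-6 hepatocytes Il6st came first at 19.9 CPM per kb, and Lifr and Osmr stood side by side at 5.17 and 5.03 CPM per kb. In DDC hepatocytes Il6st was 20.0, Lifr 9.07 and Osmr 0.922 CPM per kb. The Osmr exons span 12113 bases over all transcripts and 5491 in the longest, and by the latter Osmr was 11.1 CPM per kb in IL-6, above Lifr at 5.77. The spread of Il6ra over its GFP libraries covers the step to Il11ra1, and with the longest transcripts Il11ra1 (25.7 CPM per kb) came before Il6st (20.9).

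Apart from Il6 in IL-6 replicate 3, the ligand genes were scarce in hepatocytes. Il6, which drives the acute phase response, was 0 and 0.0688 CPM in GFP, 4.89, 3.21 and 350.9 CPM in IL-6 and 0.743, 0.559 and 1.05 CPM in IL-6 STAT3KO. DDC held 0 and 0.0446 CPM and DDC STAT3KO 0 in all 3 libraries. The labels do not give the species of the plasmid's IL-6 sequence, and reads from plasmid and genome cannot be told apart. IL-6 against GFP rested on 5738 against 1 counts, a ratio of 3852 (95% counting interval 691.1 to 152200; adjusted p = 0.0179), and was lost without GFP replicate 1 (adjusted p = 0.127), without replicate 2 (0.113) or with only these 2 groups in the fit (0.0629). The fitted log2 value was 11.53, and 6.64 without IL-6 replicate 3. IL-6 STAT3KO had 39 counts, a ratio of 23.8 to GFP (4.03 to 964.3), and did not pass against GFP in edgeR (adjusted p = 0.622). It was lower than IL-6 by 7.24 ± 1.76 on the log2 scale (adjusted p = 0.0128). That call was lost without IL-6 STAT3KO replicate 1 (-7.19, adjusted p = 0.0521) or replicate 3 (-7.50, adjusted p = 0.0503), and without IL-6 replicate 3 the log2 difference was -2.34.

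Lif, a ligand for Lifr, was 0.0640 and 0 CPM in GFP and above both in every other library: 1.42, 0.863 and 0.686 CPM in IL-6, 1.36, 2.73 and 0.292 CPM in IL-6 STAT3KO, 0.955 and 3.52 CPM in DDC, and 1.02, 2.09 and 0.150 CPM in DDC STAT3KO. With 1 count in GFP, the ratio was 28.9 for IL-6 (4.91 to 1166, adjusted p = 0.0481) and 70.8 for DDC (12.4 to 2826, adjusted p = 0.0257). Against GFP, IL-6 STAT3KO had a ratio of 43.4 (7.53 to 1736) and did not pass (adjusted p = 0.0948). The IL-6 call was lost without any 1 of the 5 compared libraries (adjusted p from 0.0564 to 0.227) or without the filter on low counts (0.0526), and the DDC call without DDC replicate 2 (0.137), GFP replicate 1 (0.109) or GFP replicate 2 (0.158). Osm had 10 counts in DDC (0.265 and 0.223 CPM), at most 3 counts in GFP, IL-6 and IL-6 STAT3KO, and 0 in DDC STAT3KO. The ratio of DDC to GFP was 7.30 (1.04 to 316.9), and DDC STAT3KO was at least 4.52-fold lower than DDC, with a floor of 3 counts over the group. Intervals and floors cover counting error only.

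Other genes of the pathway are given by list. Of the other gp130-family ligands, 2 were tested in hepatocytes, and Clcf1, a ligand that signals through Cntfr, rose in IL-6 (3.96 ± 0.63, adjusted p = 0.000927) and DDC (4.62 ± 0.66, adjusted p = 0.00151) against GFP. Clcf1 was lower in IL-6 STAT3KO than in IL-6 (-2.49 ± 0.47, adjusted p = 0.00235). It reached 6.29 to 6.39 CPM in IL-6 and 8.70 to 11.3 CPM in DDC, from 0.256 to 0.550 CPM in GFP. Cntfr, the only other receptor tested, fell in IL-6 (-2.59 ± 0.80, adjusted p = 0.0316). It was low throughout, with 25 counts in GFP (0.768 to 0.894 CPM) and 6 in IL-6 (0.0624 to 0.247 CPM). Signal transducers had 2 of 15 higher in IL-6 against GFP (Stat3, 1.84 ± 0.24, and the adaptor Gab2, 1.74 ± 0.46), where 13.7% of all genes were called higher, and their median was 0.35, beside 0.05 for all genes. Gab2 had 15 counts in GFP (0.413 to 0.576 CPM) and was 1.48 to 1.87 CPM in IL-6. In IL-6 STAT3KO against IL-6, Stat3 was lower by 1.77 ± 0.21 (adjusted p = 0.000101). In DDC against GFP, 2 of 15 rose, Gab2 (3.25 ± 0.48) and the kinase gene Mapk3 (1.16 ± 0.31), where 10.4% of all genes did.

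Negative regulators had 3 of 8 higher in IL-6 against GFP, beside 13.7% of all genes: Socs3 (4.46 ± 0.40), Socs1 (6.62 ± 0.69) and the phosphatase gene Ptpn2 (1.25 ± 0.21), with a list median of 0.31. Socs3 was 11.7 to 12.0 CPM in GFP and 215.8 to 292.1 CPM in IL-6, but 15.1 to 32.6 CPM in DDC, where 0 of 8 passed. Socs1 had 7 counts in GFP (0.206 to 0.256 CPM) and was 15.8 to 29.9 CPM in IL-6. In IL-6 STAT3KO against IL-6, Socs3 (-5.68 ± 0.36) and Ptpn2 (-1.54 ± 0.18) were lower, and Socs1 was higher in IL-6 STAT3KO than in GFP (6.49 ± 0.69). The STAT3KO difference was not the same under IL-6 and DDC for both Socs3 (-4.26 ± 0.48, adjusted p = 0.000342) and Ptpn2 (-1.99 ± 0.28, adjusted p = 0.00152). Of 4 genes for receptor shedding, the cleavage that releases soluble IL-6 receptor, 3 rose in IL-6 against GFP, beside the same 13.7%, and their median was 1.32. These were the protease gene Adam10 (0.81 ± 0.24) and Rhbdf1 (2.25 ± 0.42) and Rhbdf2 (1.84 ± 0.30), which encode partners of the protease ADAM17. Rhbdf1 (2.68 ± 0.44) and Rhbdf2 also rose in DDC, 2 of 4 beside 10.4%, and both were lower in IL-6 STAT3KO than in IL-6. In DDC STAT3KO against DDC, no tested gene of these lists passed, where edgeR called 0.00% of all genes, so this does not set the lists apart. Socs3 (-1.415 ± 0.327) and Stat3 (-0.936 ± 0.223) differed downward there and Ptpn2 (0.444 ± 0.205) upward, with an edgeR adjusted p of 0.853 each.

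Genes whose pattern over the 13 hepatocyte libraries was most like that of a member were found by Pearson r of log2(CPM + 1) among 7778 genes. For Osmr they were Prelp (0.979), Fbxo6 (0.977) and Steap4 (0.971), and for Lifr Slc22a30 (0.978), Pcmtd1 (0.978) and Arhgap26 (0.975). For Il11ra1 they were Galt (0.949), Ocel1 (0.944) and H2afy (0.928), and Galt lies inside the Il11ra1 locus on the same strand without sharing exon bases. For Il6 they were Hif1a (0.968), Acvr1b (0.919) and Mon1a (0.919), a pattern set largely by IL-6 replicate 3, and for Lif Rrm1 (0.898), Pltp (0.877) and Uhrf1 (0.875). The libraries share treatments, so these are descriptions with no p.

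Among sorted immune cells, Il6 was most abundant in macrophages and Osm in neutrophils and Ly6C-high monocytes. Il6 was 4.56 and 18.1 CPM in DDC macrophages and 6.14 and 13.1 CPM in normal diet macrophages. It was 2.94 and 1.55 CPM in Ly6C-low monocytes, 1.20 and 2.18 CPM in Ly6C-high monocytes, 0.402 and 0.494 CPM in the libraries labelled T cell, and 0 in both neutrophil libraries. Both macrophage groups lay above every other library, and the DDC and normal diet ranges overlapped. In DDC macrophages against the mean of the other 4 DDC cell types, Il6 was higher by 4.87 ± 1.08 (adjusted p = 0.0485), the only member that edgeR called in any immune comparison, where 0.695% of 27759 genes were called (0.566% higher). This fitted value includes a neutrophil group at 0 counts and depends on how 0 is handled. The call was lost without DDC macrophage replicate 1 (5.51, adjusted p = 0.0536) or replicate 2 (3.50, 0.993), without Ly6C-high replicate 1 (4.74, 0.0909) or 2 (4.96, 0.0680), and without Ly6C-low replicate 1 (5.00, 0.0613) or 2 (4.73, 0.0842). It was also lost with median-of-ratios factors (4.69, 0.0762), with a replicate block and with only the compared groups in the fit. It held with DESeq2 (4.33, 0.000210). Over these and the remaining alternatives the adjusted p ran from 0.000210 to 0.993. Neutrophils, with 0 counts against 313 in the other 4, were at least 16.3-fold lower (adjusted p = 0.0718). The genes most like Il6 over the 12 immune libraries, among 8612, were Hyi (0.893), Pla2g15 (0.879) and C1qa (0.871), a complement gene of Kupffer cells.

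Osm, the ligand for Osmr, was 204.1 and 94.5 CPM in neutrophils and 166.6 and 97.1 CPM in Ly6C-high monocytes. It was 57.2 and 43.9 CPM in Ly6C-low monocytes, 12.4 and 22.4 CPM in DDC macrophages, 7.72 and 8.31 CPM in the libraries labelled T cell, and 8.81 and 0 CPM in normal diet macrophages. The neutrophil and Ly6C-high ranges overlapped, and both lay above all other libraries. Against the other 4 DDC cell types, neutrophils differed by 2.26 ± 0.72 (adjusted p = 0.0794, 3.95% of all genes called), Ly6C-high monocytes by 2.04 ± 0.73 (adjusted p = 0.467, 0.267% called) and T cell libraries by -3.01 ± 1.02 (adjusted p = 0.151, 1.21% called). None passed in edgeR with all libraries, although the neutrophil value passed under 13 of 16 alternatives (adjusted p from 1.38e-05 to 0.227), the T cell value under 12 of 15 (0.000330 to 0.146) and the Ly6C-high value under 8 of 16 (0.00193 to 0.945). Neutrophil markers summed to 29450 and 11490 CPM in the neutrophil libraries and to 48.1 to 360.9 CPM elsewhere. In the Ly6C-high libraries 5 of the 7 were detected, at 197.1 and 166.2 CPM in sum.

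Il27, which encodes a subunit of IL-27, was 6.41 and 2.48 CPM in DDC macrophages, 4.45 and 6.85 CPM in normal diet macrophages and 2.58 and 6.63 CPM in Ly6C-low monocytes. Ly6C-high monocytes held 2.54 and 1.26 CPM, neutrophils 1.96 and 0.418 CPM, and the libraries labelled T cell 0 counts. Over the other 4 DDC cell types there were 216 counts, so Il27 was at least 26.3-fold lower in the T cell libraries with a floor of 3 counts over the group, and the edgeR test did not pass (adjusted p = 0.110). The fitted difference was 2.87 ± 1.13 in DDC macrophages (adjusted p = 0.505) and 2.93 ± 1.13 in Ly6C-low monocytes (adjusted p = 0.511, 0.0108% of all genes called). Of the Il27 exon bases, 10.1% are shared with Apobr on the other strand, and the strand setting of the counting is not given in the sources used here. Lif was 0 to 4.44 CPM throughout and ordered no cell types.

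**Figure D4:**
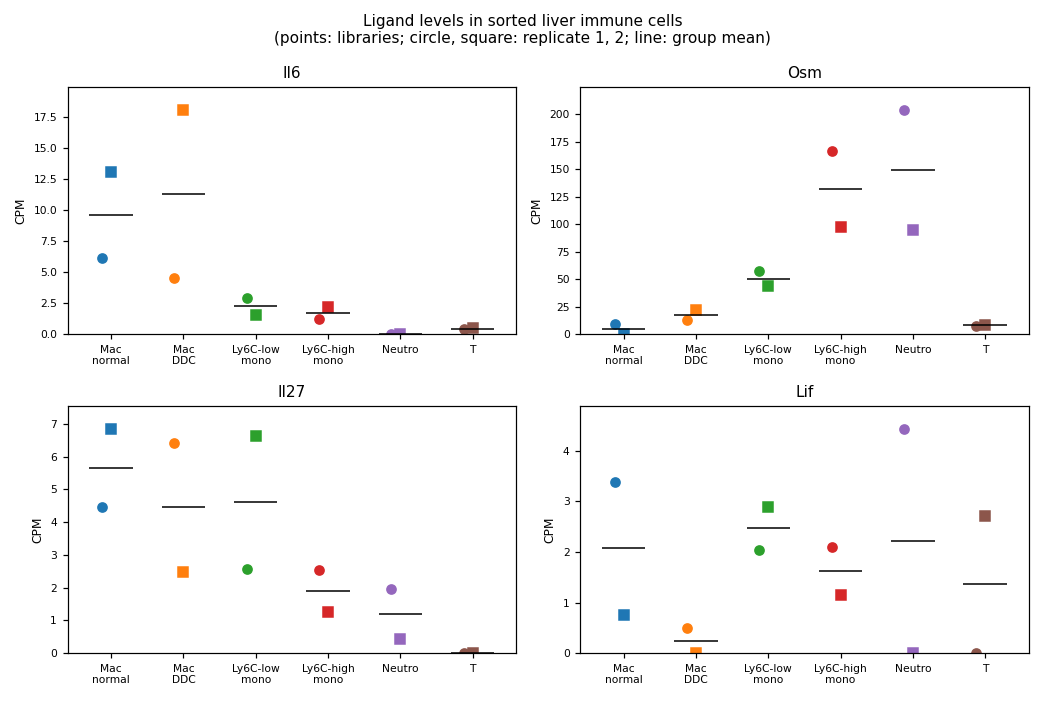
Ligand levels in 12 immune libraries (vertical axis, CPM from 0; each point is a library, lines are means of 2). Il6 is highest in the macrophage groups (4.56 to 18.1 CPM), Osm in neutrophils and Ly6C-high monocytes (94.5 to 204.1 CPM), and Il27 is 0 in both libraries labelled T cell.

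Il6ra, the IL-6 binding chain, was detected in every immune group. Ly6C-high monocytes held 302.8 and 342.2 CPM, above all other libraries, followed by Ly6C-low monocytes with 159.1 and 228.2 CPM and neutrophils with 190.1 and 109.2 CPM. The libraries labelled T cell held 100.3 and 134.3 CPM, DDC macrophages 85.2 and 117.9 CPM and normal diet macrophages 79.0 and 106.8 CPM, and these last 3 groups overlapped one another. Ly6C-high monocytes differed from the other 4 DDC cell types by 1.24 ± 0.36 (adjusted p = 0.261). Per kilobase of exon, Il6ra ran from 10.8 to 37.3 CPM per kb over the immune groups, beside 11.3 in GFP hepatocytes in the separately scaled hepatocyte table.

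Il6st was 290.9 and 165.5 CPM in the libraries labelled T cell, 301.0 and 63.6 CPM in neutrophils and 148.4 and 211.2 CPM in normal diet macrophages. DDC macrophages (86.3 and 62.8 CPM), Ly6C-low (59.2 and 67.8 CPM) and Ly6C-high monocytes (68.6 and 91.7 CPM) overlapped at lower levels, each group below both normal diet macrophage libraries. T cell libraries differed from the other DDC cell types by 1.32 ± 0.44 (adjusted p = 0.148). Lifr was 195.0 and 128.0 CPM in neutrophils and 162.2 and 147.7 CPM in the libraries labelled T cell, above all other groups, with DDC macrophages lowest at 40.5 and 19.1 CPM. DDC macrophages differed from the other 4 by -1.91 ± 0.50 (adjusted p = 0.124), which passed under 8 of 16 alternatives (adjusted p from 8.75e-05 to 0.982). Hepatocytes express Lifr strongly, and hepatocyte markers were present in these libraries, at 3858 and 2565 CPM in the T cell and 807.4 and 488.3 CPM in the neutrophil libraries. DDC macrophages, lowest in Lifr, held 2485 and 267.9 CPM of them, and the other 6 libraries 24.2 to 586.0 CPM. Their part in the Lifr levels was not tested.

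Osmr was 27.2 and 15.5 CPM in normal diet macrophages and 24.8 and 8.16 CPM in neutrophils, and 1.94 to 5.95 CPM in the other 8 libraries. Summed sinusoidal endothelial markers (6 of 6 detected in each) were 1818 and 1659 CPM in normal diet macrophages and 1912 and 796.1 CPM in neutrophils, against 106.0 to 1209 CPM in the other 8, and their part in Osmr was not tested. Il11ra1 was 63.0 and 62.9 CPM in DDC macrophages, above every other library, and its mean was lowest in Ly6C-high monocytes (5.08 and 11.9 CPM), which overlapped the libraries labelled T cell (11.8 and 39.8 CPM). DDC macrophages differed in Il11ra1 by 1.59 ± 0.50 (adjusted p = 0.258) and Ly6C-high monocytes by -2.01 ± 0.64 (adjusted p = 0.360). Il27ra was 4.60 to 23.9 CPM, and no group stood apart from all others. In the test for any difference among the 5 DDC cell types, 0 of 10 members passed in edgeR, with 2.18% of all genes called. An unadjusted p under 0.05 was found for 7 of the 10 members and 3793 of all 27759 genes, and DESeq2 called 8 members and 3993 genes.

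**Figure D5:**
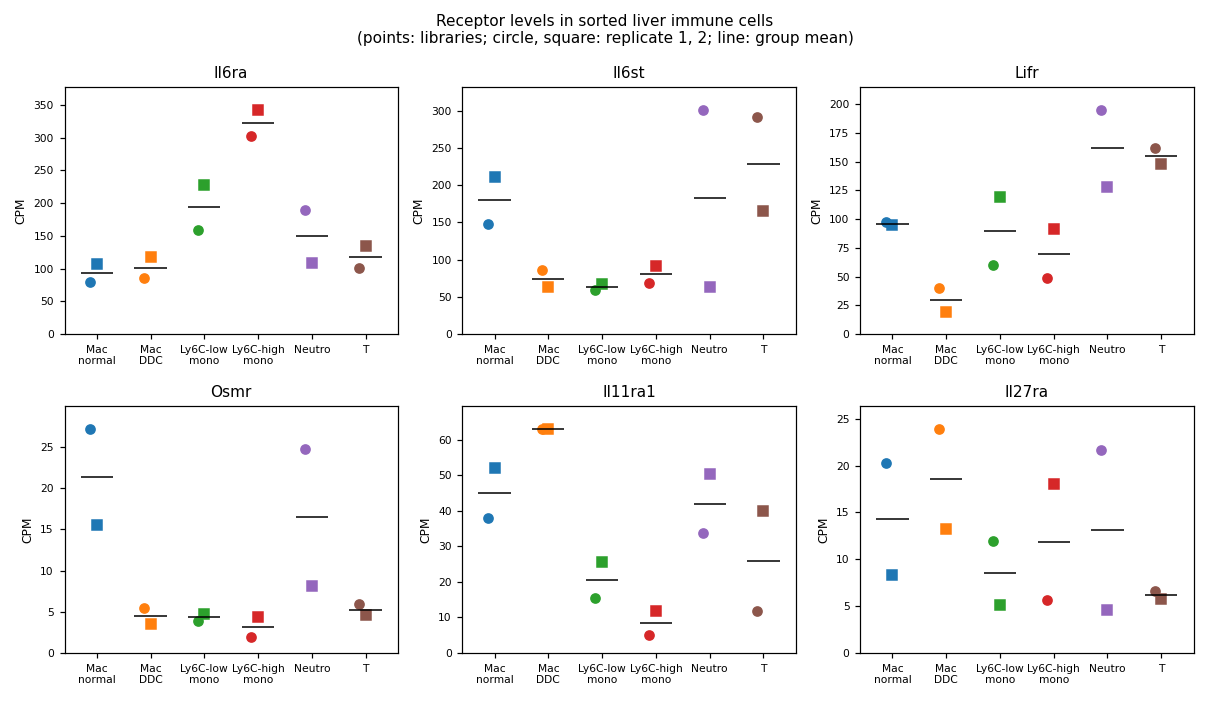
Receptor levels in 12 immune libraries (vertical axis, CPM from 0; each point is a library, lines are means of 2). Il6ra is highest in Ly6C-high monocytes (302.8 and 342.2 CPM), and Lifr is lowest in DDC macrophages (40.5 and 19.1 CPM).

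DDC macrophages were set against normal diet macrophages to describe the diet's effect on the ligand source. No member passed in edgeR (1 of 10 had an unadjusted p under 0.05), where 0.0252% of all genes were called, 7 in number, and DESeq2 called 889 genes. The median log2 difference of all genes was -0.61 with TMM and -1.12 with median-of-ratios scaling, so the values below are to be read against that shift. The same median moved from -0.01 to -0.24 for DDC macrophages and from 0.15 to 0.48 for neutrophils against the other DDC cell types. Il6 differed by 0.24 ± 1.44 (adjusted p = 0.955) and changed sign with the scaling. Osm differed by 1.99 ± 1.08 (adjusted p = 0.460), and both DDC libraries lay above both normal diet libraries. Without normal diet replicate 1, which leaves a single library at 0, the Osm value was 10.39 (adjusted p = 4.96e-06). Osmr (-2.25 ± 1.07, adjusted p = 0.460), Lifr (-1.69 ± 0.57, adjusted p = 0.416) and Il6st (-1.27 ± 0.62, adjusted p = 0.460) were lower in both DDC libraries than in both normal diet libraries. DESeq2 called 2 members, Osmr (-2.79, adjusted p = 0.0111) and Lifr (adjusted p = 0.00735). Endothelial markers summed to 612.0 and 606.6 CPM in DDC macrophages and 1818 and 1659 CPM in normal diet macrophages, and their part in these receptor values was not tested.

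In neutrophils against the other DDC cell types, where 3.95% of all genes were called, 2 genes of the pathway lists were called: Jak2, a kinase bound to gp130 (1.85 ± 0.39, adjusted p = 0.0127; 1 of 15 transducers), and Socs3 (2.25 ± 0.47, adjusted p = 0.0123; 1 of 8 negative regulators). Jak2 was 129.2 to 198.4 CPM in neutrophils and 52.9 to 103.8 CPM in the libraries labelled T cell, the next highest group. Socs3 was 71.3 to 296.4 CPM in neutrophils and 48.1 to 90.6 CPM in Ly6C-high monocytes, so these ranges overlapped. The neutrophil libraries agreed least of all groups (r = 0.666 between replicates). The list medians were 0.15 each, beside 0.15 for all genes. Ebi3, the partner subunit of IL-27, was 50.8 to 84.7 CPM in neutrophils and 25.1 to 30.6 CPM in DDC macrophages. Clcf1 was 13.2 to 13.3 CPM in DDC macrophages and 1.33 to 1.75 CPM in normal diet macrophages, a difference of 3.09 ± 1.55 that did not pass (adjusted p = 0.460).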

How the data were processed

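The authors deposited 2 tables of raw read counts per gene, 1 of hepatocytes (13 libraries) and 1 of immune cells (12 libraries). The submitters' processing notes name STAR, HTSeq, DESeq2 and mm10, while their versions and settings are not stated in the sources used here. Per the labels' protocols, cells of perfused liver were sorted by FACS, RNA was taken with Trizol, and libraries were made with TruSeq. All columns matched a sample, and the row for EGFP entered neither library sizes nor tests.

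Each table was fitted as a whole in edgeR 4.0.16 (R 4.3.3) with 1 term per group, TMM scaling and filterByExpr, leaving 14339 and 27759 genes with 8 and 6 residual degrees of freedom and a common biological coefficient of variation of 0.313 and 1.00. The call rule was an adjusted p (Benjamini-Hochberg, over all genes tested) under 0.05, and the SE is the log2 fold change divided by the root of F. The 2 tables were scaled separately. Symbols, exon lengths and coordinates came from GENCODE M21 and promoters from RefSeq.

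All members were named in each comparison, with up to 4 genes per pathway list (called, smallest adjusted p) and the 3 genes most like each called member with a mean of at least 1 CPM, among genes of at least 10 CPM. Ebi3, Clcf1 in macrophages, Spp1, Sox9, Epcam and Krt7 were named after their values were seen. Members and lists were chosen with earlier results of these data known. Same-numbered libraries showed little pairing (median r of deviations 0.040 over 23 hepatocyte pairs and 0.010 over 30 immune pairs). Different-numbered pairs had medians of -0.034 and -0.010. An r over 0.1 was found for 4 hepatocyte pairs (highest 0.318) and 2 immune pairs (highest 0.135), so a shared batch in some pairs remains possible. Alternatives were median-of-ratios factors, no filter, a replicate block, only the compared groups, DESeq2 1.42.0 and each library left out. Leaving out the T cell libraries was added after seeing the data for the macrophage diet comparison and the test for any difference. The code was tested on simulated counts. Some genes that the naming rule selects are not reported here.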

Additional observations from a re-analysis of the deposited data

Results flagged for a closer look

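The STAT3KO difference was not the same in the IL-6 and DDC models for 2 members, by the interaction term of the edgeR fit. For Osmr the STAT3KO difference under IL-6 minus that under DDC was -3.02 on the log2 scale, and for Lifr it was 2.39. Under IL-6 only, the deletion came with a change of genotype and with an AAV that the other group lacked. Under DDC the vector changed from AAV-TBG-GFP to AAV-TBG-Cre. These changes cannot be told apart from the deletion.

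The EGFP row lay outside all comparisons. It was 2.12 and 2.38 CPM in the GFP plasmid libraries, and 5 libraries exceeded both. The DDC libraries, whose mice received AAV-TBG-GFP, held 1309 and 1496 CPM, and the IL-6 libraries held 7.08, 5.06 and 424.0 CPM in order of replicate. IL-6 replicate 3, with 424.0 CPM of EGFP, was also the library with 350.9 CPM of Il6. What the EGFP reads come from was not tested.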

How the results depend on the processing

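Osmr and Lifr kept direction and call in IL-6 against GFP (11 of 11 alternatives each), IL-6 STAT3KO against IL-6 (12 of 12) and DDC against GFP (10 of 10). Recomputed values were counted for members with an unadjusted p under 0.05 in a comparison and for some others chosen for the text. Of these, 609 stayed on their side of the threshold, 35 lost a call, 118 gained one and 8 changed sign, the cause not tested. Sign changes of the remaining member values were not counted. The sign changes were Il6ra in IL-6 against GFP (0.185 without GFP replicate 2, -1.112 without GFP replicate 1), Lifr in DDC STAT3KO against DDC (-0.046 without DDC STAT3KO replicate 3, -0.043 with IL-6 replicate 3 left out as well, 0.600 without DDC STAT3KO replicate 1) and Il6 in DDC against normal diet macrophages. The last was -0.22 with median-of-ratios factors and with DESeq2, -0.046 with no filter, and ran from -1.22 to 0.79 with a library left out (-1.22 without DDC macrophage replicate 2, -0.19 without normal diet replicate 1).

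Counts of members called that moved by over 1.5 times are given here, and the others moved less or not at all. Counts of all genes called moved with the settings too and are not set beside each value. These member counts are therefore descriptions and not results about the members. With no filter there were 2 for macrophages, 2 for T cells, 2 for neutrophils and 1 for Ly6C-high monocytes against the other DDC cell types, and 3 in the test for any difference. With median-of-ratios factors there were 2 for neutrophils and 2 for any difference. DESeq2 called 2 in IL-6 STAT3KO against GFP, 1 in IL-6 against DDC, 2 in DDC against normal diet macrophages, 8 for any difference, 3 for macrophages, 3 for T cells, 4 for neutrophils and 2 for Ly6C-high monocytes. With only the compared groups there was 1 in IL-6 against DDC, 0 for macrophages, 1 for T cells and 1 for neutrophils. Leaving out the T cell libraries gave 1 for neutrophils, and leaving out IL-6 replicate 3 with DDC STAT3KO replicate 3 gave 3 in IL-6 STAT3KO against GFP. With the replicate number as a block there were 2 in IL-6 STAT3KO against GFP and 0 for macrophages. With 1 library left out, members called ran from 2 to 3 in IL-6 against GFP, 2 to 4 in IL-6 STAT3KO against IL-6, 0 to 1 in IL-6 STAT3KO against GFP, 2 to 4 in DDC against GFP, 0 to 3 in IL-6 against DDC, 1 to 3 in the interaction, 0 to 1 in DDC against normal diet macrophages, 1 to 5 for any difference, 0 to 3 for macrophages, T cells and Ly6C-high monocytes, and 0 to 2 for neutrophils.

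Counts of all genes called moved more. With 1 library left out they ran from 1651 to 3450 in IL-6 against GFP (3719 with all), 2541 to 3564 in IL-6 STAT3KO against IL-6 (3781), 89 to 434 in IL-6 STAT3KO against GFP (448; 1175 without the 2 libraries named above), 607 to 1220 in DDC against GFP (2674; 4415 with only these groups), 608 to 1655 in IL-6 against DDC (1661) and 459 to 1611 in the interaction (1187; 2163 without those 2 libraries). In DDC against normal diet macrophages they ran from 35 to 79 (7; 889 by DESeq2), for any difference from 1302 to 4115 (605; 3993), for macrophages from 152 to 1465 (193; 769), for T cells from 563 to 2917 (337; 2766, and 114 with only the compared groups), for neutrophils from 1042 to 5901 (1096; 4083, and 634), for Ly6C-low monocytes from 21 to 542 (3; 394) and for Ly6C-high monocytes from 81 to 934 (74; 593, and 34). Each immune group has 2 libraries, and the shallowest held 3817794 counts, which limits what members at a few CPM can show. The order of receptors per kilobase in GFP hepatocytes kept 4 of 6 ranks with the longest transcript as the length.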
